A study of Mus musculus with 54 samples.

Results

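Fosb and Atf3 are immediate-early genes of the mouse, and each of them has another annotated gene on the same strand just past its 3′ end. Gm26802, a lincRNA gene, begins 1925 bp beyond the end of Fosb, and Fam71a, a protein-coding gene of 1 exon, begins 5478 bp beyond the end of Atf3. These 4 genes, of 33126 listed in any file of the series, were chosen by their levels after warm and cold dissociation. For them that contrast is therefore a description with no test, and its calls among other genes are given as background. Tests of the 4 genes are kept for storage, intact tissue and nuclei.

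FosB and ATF3 are bZIP transcription factors. FosB binds DNA as a dimer with a Jun protein in the AP-1 complex, and ATF3 belongs to the ATF/CREB family and is induced by many kinds of stress, including ischemia of the kidney. Immediate-early genes are transcribed within minutes of a stimulus and without new protein synthesis, and their transcripts are short-lived. RNA polymerase II normally runs some way past the polyadenylation signal before it is released, and in stressed cells it can run much farther, so that reads can fall in the next gene on the same strand. A gene that begins past the end of an induced gene can also have a promoter of its own.

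The series holds 39 10x Chromium libraries and 15 bulk RNA-seq libraries of healthy adult mouse kidney, in 18 groups of 3 libraries, the 3 of a group being from 3 mice. The male C57BL/6J mice were AFAPIL.1DEL littermates of 19 weeks, and their kidneys were dissociated at 37 °C with a Miltenyi enzyme kit (warm) or on ice with a protease of Bacillus licheniformis (cold). Suspensions were profiled in bulk and as fresh, cryopreserved and methanol-fixed cells by 10x, which gave 2 bulk and 6 10x groups. Untreated male Balb/c littermates of 18 weeks gave intact kidneys in bulk, cold-dissociated fresh cells and nuclei prepared with SN_FANS_3×500g. Wild-type female Balb/c former breeders of 15 weeks gave intact kidneys and cold suspensions in bulk, fresh and cryopreserved cold-dissociated cells, and nuclei prepared with SN_FANS_3×500g, SN_FANS_1×2000g and SN_sucrose. The 3 sets of mice were processed at different times, so strain, sex and time cannot be told apart between them, and every test here stays within 1 set. Where levels of several sets are plotted together or enter 1 correlation, these differences are part of the values.

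Depth ran from 2326998 to 31093949 reads for bulk libraries and from 983522 to 35170947 UMIs for 10x libraries. The 10 proximal tubule markers were present in every bulk group, with summed levels between 13938 and 27572 CPM, which here are reads or UMIs scaled to a common library total. In the 10x cryopreserved C57BL/6J groups they fell to between 11 and 48.9 CPM, from between 4432 and 6395 in the fresh groups. No 2 of the 10x libraries shared more than 101 barcodes. The study's methods state that genes seen in fewer than 10 cells were left out of the 10x data, although up to 852 genes in a library are still listed in 1 to 9 of the deposited cells. A 0 in the 10x data can thus stand for up to 9 UMIs where each of 9 cells held 1, and folds against such a 0 were taken against 9 UMIs per library. These folds hold for 1 UMI per cell. Atf3 had 1.06 and 1.07 UMIs per cell that held it in the cold fresh libraries that show it, but Fosb had 3.18, 3.04 and 2.91 in warm fresh ones, and at such a number per cell the folds would be smaller by that factor. Nuclei counts include intronic reads and cell counts do not, and the nuclei data hold no mitochondrial genes. All precision given for counts covers counting error only.

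The annotated ends of the 4 transcripts are shown because reads past an end would leave the gene there. In each line the last 30 bases of the first-numbered GENCODE transcript are given 5′ to 3′, and capitals mark the hexamer AATAAA, the commonest polyadenylation signal.
Fosb: tcgccAATAAAaagcttttaaaaaactgta
Gm26802: tctgaagactgctacagtgtacttacatat
Atf3: atAATAAAtatcggaacaaaacctggtaaa
Fam71a: ctcagtgcagtttaAATAAAggactacctg
Fosb, Atf3 and Fam71a carried the hexamer and Gm26802 did not, neither in these bases nor in its last 40. Of all annotated transcripts, 39.3% of 58797 protein-coding ones and 29.9% of 9101 lincRNAs held it in their last 40 bases, so its absence from Gm26802 was common for a lincRNA.

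The promoters of Fosb, Gm26802 and Atf3 are shown because the neighbour Gm26802 moved with Fosb and has a start of its own. They are RefSeq sequences of the minus strand in GRCm38, from 250 bases before to 50 after the start, at chr7:19309996-19310295 for Fosb, chr7:19300744-19301043 for Gm26802 and chr1:191183284-191183583 for Atf3. For Atf3 this start lies inside the span annotated by GENCODE, chr1:191170296-191218039. The start at the upstream end of that span was not examined. Capitals mark the core TGACG of the cAMP response element, read on either strand, and the TATA motif TATAAA, also on either strand.
Fosb: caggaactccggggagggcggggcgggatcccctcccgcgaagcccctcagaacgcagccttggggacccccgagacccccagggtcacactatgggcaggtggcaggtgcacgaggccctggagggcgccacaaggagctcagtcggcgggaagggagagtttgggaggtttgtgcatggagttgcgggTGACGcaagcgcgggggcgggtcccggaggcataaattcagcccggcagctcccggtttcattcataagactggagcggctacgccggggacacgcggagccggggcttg
Gm26802: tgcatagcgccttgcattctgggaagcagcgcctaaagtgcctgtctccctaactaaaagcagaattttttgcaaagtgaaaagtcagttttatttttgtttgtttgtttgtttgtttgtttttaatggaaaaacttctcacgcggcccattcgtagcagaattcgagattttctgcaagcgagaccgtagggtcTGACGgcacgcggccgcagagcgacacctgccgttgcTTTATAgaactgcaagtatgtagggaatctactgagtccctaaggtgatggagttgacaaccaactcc
Atf3: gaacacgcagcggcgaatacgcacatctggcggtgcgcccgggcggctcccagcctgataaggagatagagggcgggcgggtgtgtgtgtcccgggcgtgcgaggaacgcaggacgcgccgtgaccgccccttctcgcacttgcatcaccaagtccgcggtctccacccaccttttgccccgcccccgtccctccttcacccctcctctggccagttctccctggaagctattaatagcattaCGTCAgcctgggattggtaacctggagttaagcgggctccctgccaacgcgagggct
Each of these 3 promoters held 1 match to TGACG, and Gm26802 held 1 to TATAAA, on the reverse strand. The promoter of Fam71a, at chr1:191164768-191165067 on the same strand, held neither. TGACG occurred in 20.8% and TATAAA in 13.6% of 32851 RefSeq promoters of the same length. The full element TGACGTCA, which contains TGACG, the AP-1 site TGACTCA and the CArG box occurred in 1.79%, 5.2% and 1.63% of them, and in none of the 4. RefSeq promoters were found for all 4 genes, and a match is a run of letters and not a bound site.

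All 4 genes lie on the minus strand of GRCm38. Fosb (ENSMUSG00000003545) spans chr7:19302696-19310051 with 6243 exonic bases, and Gm26802 (ENSMUSG00000097266) spans chr7:19298260-19300770 with 2144. Atf3 (ENSMUSG00000026628) spans chr1:191170296-191218039 with 2154 exonic bases, and Fam71a (ENSMUSG00000091017) spans chr1:191162584-191164817 with 2234. The 15 bulk libraries all list Fosb, Atf3 and Fam71a, whereas Gm26802 is listed in only the 6 of C57BL/6J mice. Of the 39 10x libraries, 30 list Fosb, 33 list Atf3 and 18 list each neighbour. Counts were above 0 in 24 of them for Fosb, in 31 for Atf3, in 9 for Gm26802 and in 8 for Fam71a.

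In bulk RNA-seq of C57BL/6J suspensions, Fosb had 8, 5 and 5 reads in the cold libraries and 3944, 2936 and 3721 in the warm ones. Atf3 had 13, 11 and 9 reads in the cold libraries and 1006, 709 and 1085 in the warm ones. Both genes were low in all 3 cold libraries and high in all 3 warm ones, with no overlap. Fosb averaged 478 against 0.870 CPM, a 550-fold difference, and Atf3 averaged 126 against 1.62, a 77.9-fold difference.

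The neighbours followed at a far lower level. Gm26802 had 0 reads in each cold library and 32, 20 and 40 in the warm ones, at least 9.22-fold higher against a floor of 3 reads per library. Fam71a had 0 reads in each cold library and 27, 16 and 32 in the warm ones, at least 7.51-fold higher against the same floor. In both, the warm library with the fewest reads was the one that also had the fewest reads of Fosb and Atf3. This library, with 6910972 reads in all, was also the shallowest of the 3. Of 14102 genes tested with edgeR's quasi-likelihood test, 5.42% were higher after warm dissociation at an adjusted p under 0.05, and 0.447% were so with a log2 fold change of 2 or more. All 4 genes were above both limits, which the choice of the genes fixes.

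**Figure D1:**
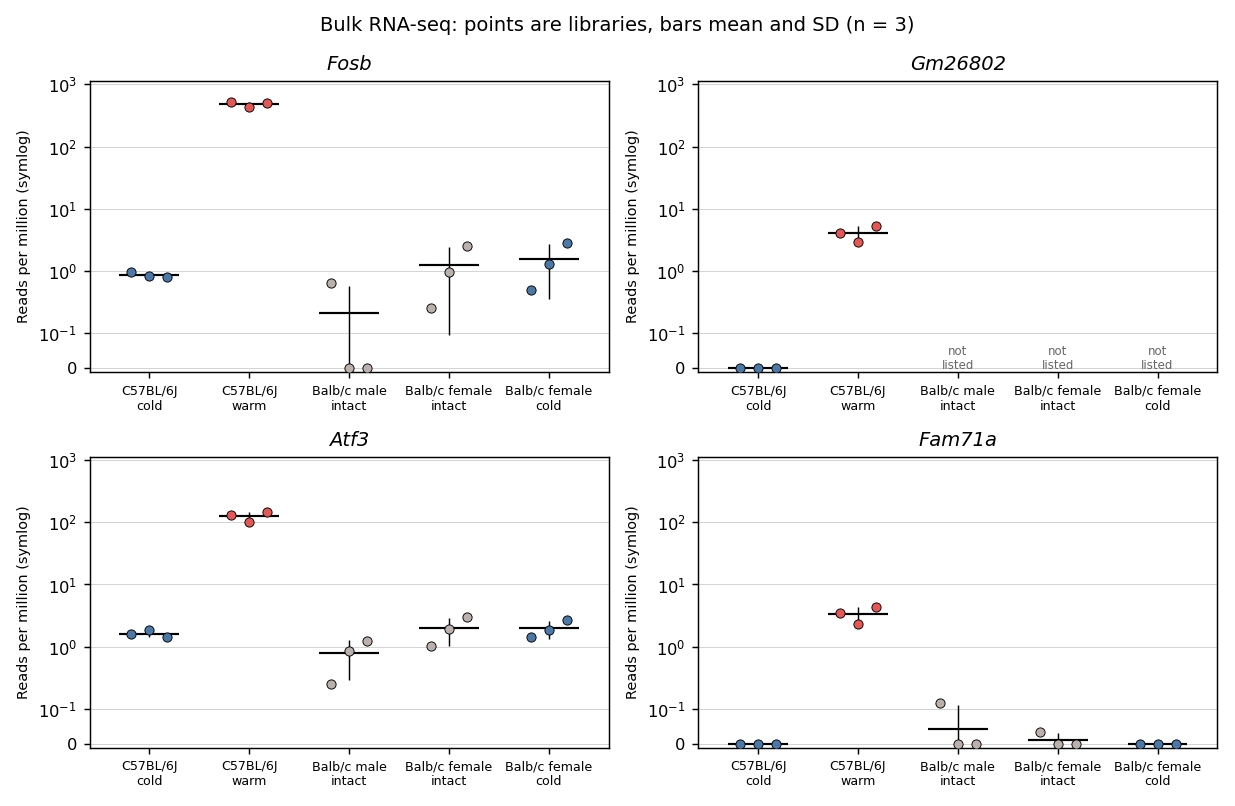
Reads in CPM of the 4 genes in the 15 bulk libraries, on a symlog axis that is linear below 0.1. Points are libraries, horizontal bars are means and vertical bars are 1 SD, cut off at 0 (n = 3). The 3 warm C57BL/6J libraries lie above all others for each gene, and Gm26802 is not listed for Balb/c mice.

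Set against the gene before it, each neighbour was a small share. Gm26802 had 0.811, 0.681 and 1.07 reads per 100 reads of Fosb in the 3 warm bulk libraries, and 2.36, 1.98 and 3.13 when both counts were divided by exonic length. Fam71a had 2.68, 2.26 and 2.95 reads per 100 reads of Atf3, and 2.59, 2.18 and 2.84 per length. The spread between libraries of each ratio was thus small, and per length the ranges of the pairs overlapped. The deposited counts hold reads per gene, so reads in the 1925 bp and 5478 bp between the genes were not measured. The libraries were rRNA-depleted and the strand setting of the counting is not given in the sources used here.

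In intact Balb/c kidneys and cold suspensions the 3 genes listed there had few reads. Fosb had 8, 29 and 73 reads in intact female kidneys and 11, 34 and 67 in female cold suspensions, and 5, 0 and 0 in intact male kidneys. Atf3 had 32, 58 and 86 reads in intact female kidneys, 32, 48 and 64 in female cold suspensions and 2, 2 and 6 in intact male kidneys. The intact and dissociated female libraries overlapped throughout for both genes. Fam71a had 1, 0 and 0 reads in the intact kidneys of either sex and 0 in each female suspension. The female libraries were made from poly(A) RNA and the male ones after rRNA depletion, so the sexes are not compared.

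The comparison of intact kidneys with cold suspensions asks whether cold dissociation alone moves these genes. Neither passed the test of edgeR. Fosb differed by a log2 fold change of −0.33 (SE 0.69, n = 3 and 3, adjusted p = 0.794, edgeR quasi-likelihood), intact against suspension, where 20% of 16538 genes were called in either direction. Atf3 differed by −0.02 (SE 0.35, adjusted p = 0.982, edgeR). Both genes rose from the first to the third library in both groups. The labels do not say whether intact kidneys and suspensions came from the same mice, and the fit is unpaired. When 1 library at a time was left out, Fosb lay between −1.32 and 0.43 and Atf3 between −0.41 and 0.29, none of them called. Macrophage markers moved too, 5 of 6 lower and 1 higher in intact kidneys, and 7 of 9 endothelial markers were higher. Their part in these values was not tested, and in bulk tissue fewer cells of a type and less RNA per cell cannot be told apart.

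No other gene near the 2 loci passed the test between warm and cold suspensions. The other annotated genes within 50 kb of Fosb or Atf3 number 15, and 6 of them had enough bulk reads to be tested. On the same strand as Fosb, Vasp, a regulator of actin, lies 30878 bp past its end and had a log2 fold change of 0.10 (SE 0.09). Cd3eap, a subunit of RNA polymerase I, lies before Fosb on that strand and had 0.43 (SE 0.22). Opposite to Fosb, Opa3 had −0.10, Ercc1, a DNA repair nuclease subunit, had 0.10 and Ppp1r13l, an inhibitor of p53, had 0.43. D730003I15Rik, opposite to Atf3, had 0.11. None of these 6 passed the test, with adjusted p between 0.279 and 0.898 (edgeR quasi-likelihood).

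Rtn2, a reticulon gene on the other strand that lies just beyond Gm26802, had 4, 9 and 5 reads in the cold libraries and 7, 5 and 5 in the warm ones. These overlapped, at too few reads to be tested. Ppm1n, the next gene past Gm26802 on the strand of Fosb, had 1 read in a single warm library and 0 in the other 5. Gm37168, opposite to Atf3, had between 0 and 2 reads in these libraries, and the other 6, D830036C21Rik, Gm44698, 1700058P15Rik, Gm38161, Gm24748 and Gm37074, are not listed for them.

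**Figure D2:**
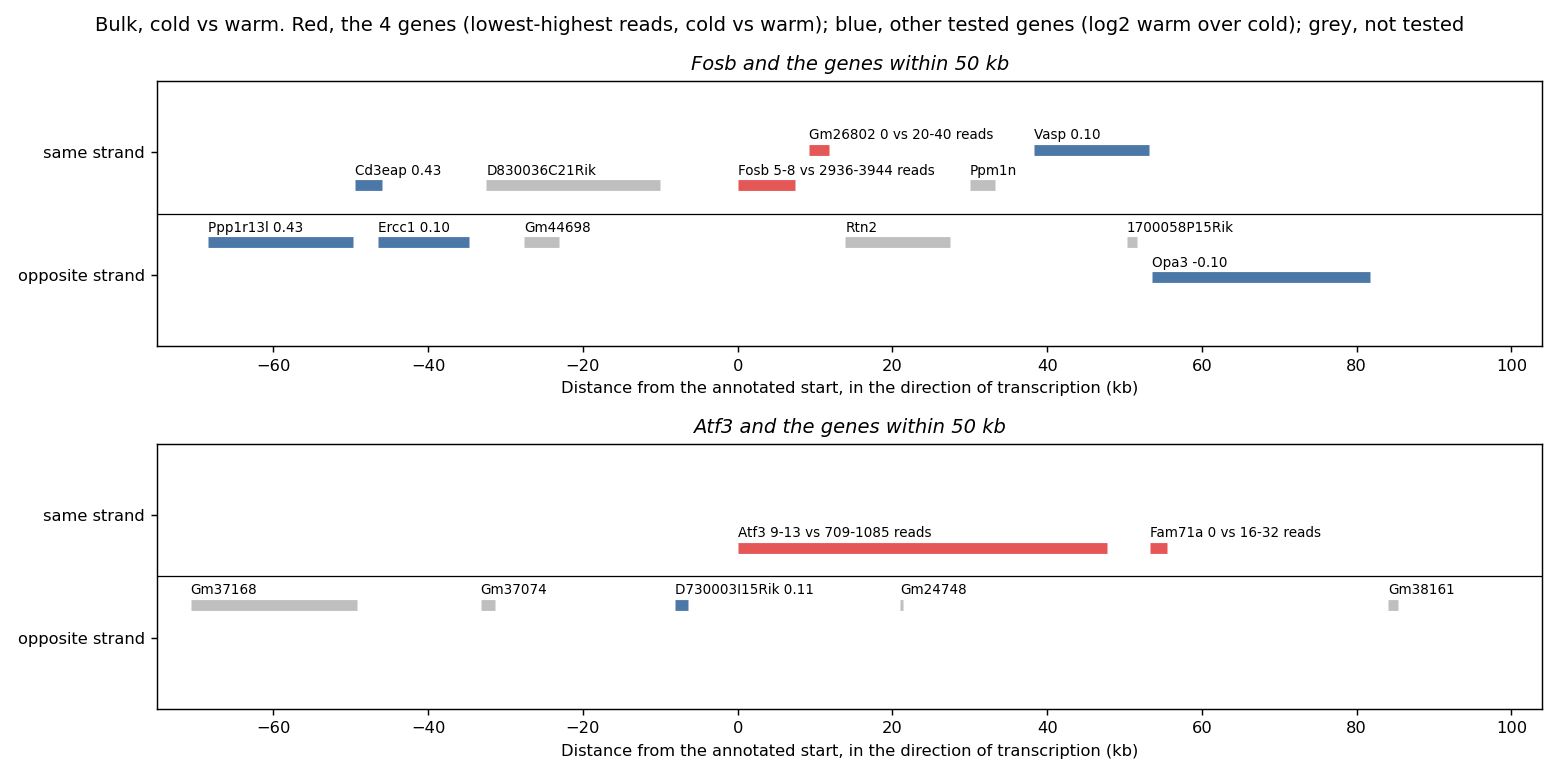
Genes within 50 kb of Fosb (top) and Atf3 (bottom) by distance in kb from the annotated start, in the direction of transcription, with the same strand above the line and the opposite strand below it. Red genes are the 4 described here with the lowest and highest reads of the 3 cold against the 3 warm bulk libraries, blue genes carry the log2 fold change of warm over cold, and grey genes were not tested. Fosb, Gm26802, Atf3 and Fam71a stand apart from the tested genes, which their choice by this contrast fixes.

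Other strongly warm-induced genes were examined for the same arrangement. Of the genes tested, 63 were higher after warm dissociation with a log2 fold change of 2 or more. Apart from the 2 pairs described here, there were 23 pairs of such a gene and a same-strand neighbour that began within 10 kb past its end, and in 15 of these pairs the neighbour was listed and in 7 tested. Of these 7, 2 were higher, where 5.42% of all genes were. They were 1110038B12Rik past Hspa1b (log2 fold change 0.59, SE 0.17), and Hspa1b past Hspa1a (4.07, SE 0.31). Hspa1a and Hspa1b encode near-identical HSP70 proteins, so their reads can be shared, and Hspa1b was itself among the 63 genes. The other 5 had values between −0.09 and 0.32, among them Atg101 past the orphan receptor gene Nr4a1 (0.09, SE 0.15), Rnaseh2a past Junb (−0.02, SE 0.14) and Plekhg2 past Zfp36 (0.32, SE 0.12).

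Before these genes on the same strand, 9 neighbours were tested, of which 1, Hspa1a, was higher and 1, Tyrobp, was lower (log2 fold change −0.80). Past their end on the opposite strand 7 were tested, of which none was higher and 1, the lymphotoxin gene Ltb, was lower (−1.49). The median log2 fold change was 0.16 for the 7 same-strand neighbours past the end, −0.06 for those before the start and −0.13 for those on the opposite strand, beside −0.01 over all genes tested. The contrast is the one by which the 2 pairs were chosen, so these counts are a description. The 7 tested neighbours had between 38 and 9951 reads in the cold libraries, and those with too few reads for a test were not examined further.

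In the 10x data of fresh C57BL/6J cells, Fosb was at 0 in the 3 cold libraries and had 636, 1756 and 654 UMIs in the warm ones. It averaged 117 CPM, at least 88.1-fold higher than the floor of 9 UMIs per library at 1 UMI per cell. Atf3 had 0, 18 and 16 UMIs in the cold libraries and 349, 654 and 383 in the warm ones. Gm26802 had 13, 44 and 24 UMIs in the warm libraries and 0 in the cold ones, at least 2.37-fold higher. Warm and cold libraries did not overlap for any of these 3 genes, which were chosen with this contrast known. The share of all genes without overlap was not taken in this or any other contrast of the report. Fam71a had 13, 10 and 0 UMIs in the warm libraries and 0 in the cold ones. Its warm average of 1.06 CPM was below the 1.32 CPM of the floor, although the counts of 13 and 10 lay above 9. In this contrast 7.86% of 12061 genes were higher.

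Cryopreservation asks whether freezing and thawing change what a suspension shows, and it was not the contrast by which the genes were chosen. After cold dissociation Fosb and both neighbours had UMIs only in the cryopreserved libraries, and Atf3 had far more there. Fosb was at 0 in the 3 fresh libraries and had 787, 1079 and 627 UMIs in the cryopreserved ones. Gm26802 had 65, 132 and 73 UMIs and Fam71a had 23, 52 and 26, both against 0 in each fresh library. The lowest cryopreserved library lay far above the fresh ones for all 4 genes.

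Fosb averaged 389 CPM in cold cryopreserved cells, at least 294-fold above the floor, Gm26802 averaged 41.2, at least 31.1-fold, and Fam71a averaged 15.3, at least 11.5-fold. These folds are against 9 UMIs per fresh library at 1 UMI per cell. Atf3 had 0, 18 and 16 UMIs in the fresh libraries and 390, 743 and 530 in the cryopreserved ones, a fitted log2 fold change of 6.87 (SE 0.46, n = 3 and 3). All 4 genes met the filter on low counts, 2.48 CPM in 3 libraries, through the cryopreserved libraries alone, so no test of them is given. In this comparison 21.8% of 11392 genes were called higher.

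After warm dissociation, cryopreserved libraries again lay above fresh ones without overlap, and how many of all genes did so was not taken. Fosb had 1443, 1622 and 1848 UMIs in cryopreserved libraries, an average of 891 against 117 CPM and a log2 fold change of 2.52 (SE 0.11, adjusted p = 4.1e-06, edgeR). Atf3 had 1129, 1379 and 1288 UMIs, an average of 691 against 57.9 CPM and a log2 fold change of 3.18 (SE 0.13, adjusted p = 2.77e-06, edgeR). Gm26802 had 45, 102 and 107 UMIs, an average of 44.9 against 3.14 CPM and a fitted log2 fold change of 3.40 (SE 0.28). Fam71a had 59, 64 and 100 UMIs, an average of 40.1 CPM against at most 1.54, where the 1 fresh library at 0 was set to the floor. The fresh libraries alone did not meet the filter for either neighbour, so these values have no test. In this comparison 25.8% of 10778 genes were called higher.

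The cells recovered differed as well. In the cold C57BL/6J groups all 10 proximal tubule markers fell with cryopreservation, all 9 endothelial and all 6 macrophage markers rose, and so did 5 of the 6 T cell markers tested. The warm groups gave the same counts for the proximal tubule and the endothelium, with 5 of 5 macrophage markers higher. Cells named proximal tubule-like by the markers made up 63.1% of cold fresh cells and 0.426% of cold cryopreserved ones, and 71.1% and 0.660% after warm dissociation. The levels were therefore also compared within cell classes.

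**Figure D3:**
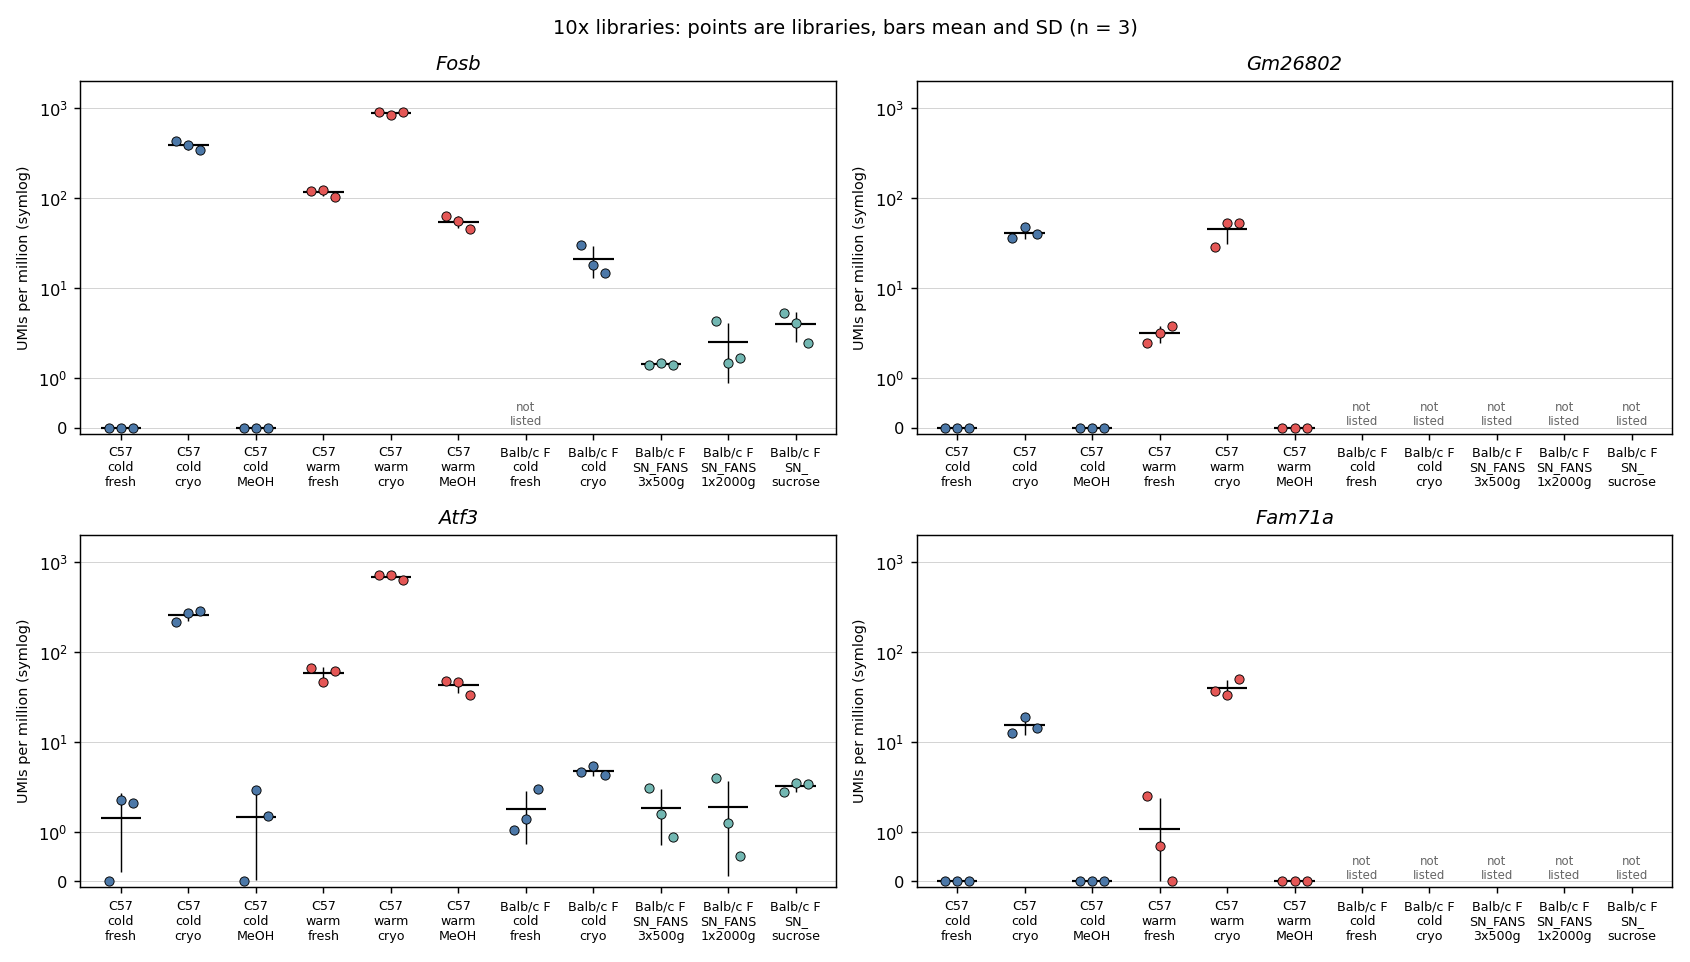
UMIs in CPM of the 4 genes in 33 10x libraries of C57BL/6J (C57) and female Balb/c (Balb/c F) mice, on a symlog axis that is linear below 1. Points are libraries, horizontal bars are means and vertical bars are 1 SD, cut off at 0 (n = 3). Warm libraries are red, cold ones blue and nuclei green, and a point at 0 can stand for up to 9 UMIs. The totals of nuclei hold no mitochondrial UMIs. The cryopreserved C57BL/6J groups are the highest for each gene, and warm methanol-fixed (MeOH) libraries lie below warm fresh ones for Fosb.

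Methanol fixation gave another picture. After cold dissociation Fosb and both neighbours were at 0 in all 3 methanol libraries, and Atf3 had 0, 18 and 10 UMIs, which overlapped the 0, 18 and 16 of the fresh libraries. Atf3 did not pass the test (log2 fold change 0.04, SE 1.28, adjusted p = 0.983, edgeR), where 27.9% of 11910 genes were called in either direction. After warm dissociation Fosb fell, to 123, 217 and 45 UMIs in the methanol libraries. That is an average of 54.7 against 117 CPM, with no overlap between the groups, and a log2 fold change of −1.12 (SE 0.14, adjusted p = 0.00314, edgeR), where 9.77% of 10826 genes were called lower. The warm fresh libraries were the high side of the contrast by which Fosb was chosen, so a fall from them was favoured by that choice. Of the markers tested, 4 of 9 endothelial and 3 of 10 proximal tubule markers were lower here and 3 of 4 erythroid markers higher, and their part in the fall was not tested.

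Atf3 had 93, 181 and 33 UMIs in the warm methanol libraries, an average of 42.5 against 57.9 CPM, and did not pass (log2 fold change −0.43, SE 0.16, adjusted p = 0.112, edgeR). Gm26802 and Fam71a were at 0 in all 3. With 983522 to 3882938 UMIs in these libraries, up to 9 UMIs of a neighbour in each could have gone unlisted, so a difference in the neighbours was not detectable at this depth.

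Female Balb/c cells were cryopreserved after cold dissociation too. Fosb is not listed for their fresh libraries and had 186, 103 and 70 UMIs in the cryopreserved ones, an average of 21.2 CPM and at least 47.8-fold above 9 UMIs per fresh library. Atf3 had 20, 38 and 50 UMIs in fresh libraries and 28, 30 and 20 in cryopreserved ones. In CPM this was 1.03, 1.36 and 3.01 against 4.58, 5.32 and 4.22, with no overlap. The log2 fold change of Atf3 was 1.07 (SE 0.38, adjusted p = 0.0376, edgeR), where 28.9% of 11947 genes were called higher, and the call was lost in 5 of 6 fits that left out 1 library (0.79 to 1.15). It was kept without the third fresh library, at 1.54. Gm26802 and Fam71a are not listed for any female 10x library. Proximal tubule markers moved here as well, from between 3403 and 4082 to between 498 and 1031 CPM in sum. Macrophage-like cells made up 3.95% of fresh and 11.1% of cryopreserved cells, and endothelial-like cells 6.19% and 24.5%. The part of these changes in the result was not tested. These cells were stored for 2 weeks, spun at 1200 g after thawing and profiled with version 3 of the 10x chemistry, and those of the C57BL/6J mice for 6 weeks, at 400 g and with version 2.

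Fosb was seen in many cell classes after cold dissociation and cryopreservation. Classes were rebuilt by clustering without the 4 genes or other stress genes, and named from marker lists, so each name means a likeness to that type. Fosb was at 0 in the fresh cells of each class and could pass the filter on low counts only through the cryopreserved cells, so no count of classes called is given for it. Over all pairs of gene and class 3.52% were called higher. Against 9 UMIs in each fresh library, at 1 UMI per cell, the lower bound was 15.8-fold in endothelial-like cells, 14.4-fold in macrophage-like cells, 9.92-fold in dendritic-like cells, 6.88-fold in T cell-like cells and 3.29-fold in B cell-like cells. It was 1.96-fold in distal convoluted tubule-like, 1.83-fold in podocyte-like and 1.48-fold in thick ascending limb-like cells. In NK cell-like and neutrophil-like cells it was 0.815-fold and 0.454-fold. Connecting tubule-like and proximal tubule-like cells, 106 and 15 cryopreserved cells, had 0 UMIs of Fosb.

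Atf3 had enough UMIs for a fit in 4 classes, mainly those of the cryopreserved cells, so the fitted values are given as a description. Endothelial-like cells had 6 UMIs in fresh and 144 in cryopreserved libraries (log2 fold change 4.23, SE 0.45), and macrophage-like cells had 12 and 458 (4.85, SE 0.38). Dendritic-like cells had 4 and 298 (5.72, SE 0.58) and monocyte-like cells had 3 and 479 (5.66, SE 0.43). In lymphocytes Atf3 stayed low, with 13 UMIs in T cell-like and 14 in B cell-like cells of the cold cryopreserved libraries, where Fosb had 218 and 111. Both classes had 0 UMIs of either gene in the fresh libraries.

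After warm dissociation, the fresh cells alone met the filter for Fosb in 9 classes and for Atf3 in 6. Of these, Fosb was higher in cryopreserved cells in 6 and Atf3 in 3, where 5.2% of all pairs of gene and class were. In endothelial-like cells Fosb rose by 1.90 (SE 0.15) and Atf3 by 2.18 (SE 0.20) on the log2 scale, and in macrophage-like cells by 1.74 (SE 0.22) and 1.73 (SE 0.21). Collecting duct principal-like cells had a log2 fold change of 1.72 (SE 0.21) for Fosb, and intercalated-like cells had 2.50 (SE 0.26) for Fosb and 2.76 (SE 0.25) for Atf3. Fosb did not pass in B cell-like (0.43, adjusted p = 0.289), dendritic-like (0.95, adjusted p = 0.136) or monocyte-like cells (0.74, adjusted p = 0.349, edgeR). In endothelial-like and macrophage-like cells the values lay below those over whole libraries, 2.52 for Fosb and 3.18 for Atf3, whereas intercalated-like cells were close to the former.

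**Figure D4:**
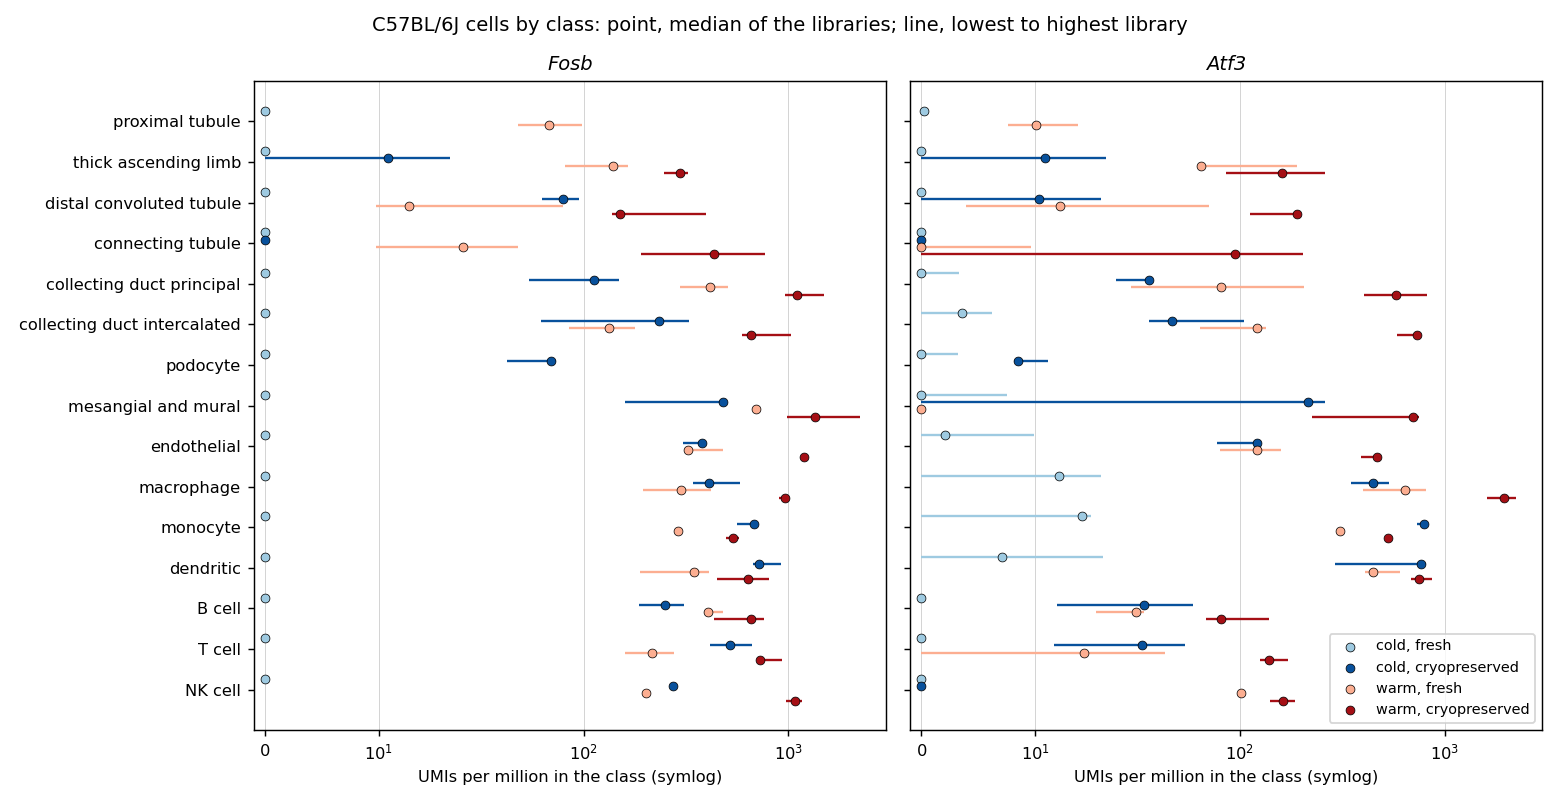
Fosb (left) and Atf3 (right) in CPM, the UMIs scaled to the total of each cell class of the C57BL/6J 10x libraries, on a symlog axis that is linear below 10. Points are medians and lines run from the lowest to the highest library with at least 10 cells, and a missing point means that no library had 10. Fosb in cold fresh cells is at 0 in every class, and Atf3 separates the myeloid classes from the lymphocytes.

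In methanol-fixed warm cells both groups met the filter for Fosb in 2 classes. The fresh cells are again those of the contrast by which the genes were chosen. Fosb was lower in endothelial-like cells (log2 fold change −2.1, SE 0.30, adjusted p = 0.00152, edgeR), also with any 1 library left out (−2.24 to −1.99), where 6.16% of pairs of gene and class were lower. In proximal tubule-like cells it did not pass (−0.78, SE 0.26, adjusted p = 0.0745, edgeR), but did without the third fresh library (−1, adjusted p = 0.0285, edgeR). Macrophage-like cells had a fitted value of −2.19 (SE 0.49), which only the fresh cells brought past the filter. Atf3 was tested in 5 classes and none passed. In endothelial-like cells Atf3 had 0.02 (SE 0.35) and in macrophage-like cells −0.42 (SE 0.28). For methanol after cold dissociation no class had enough UMIs for a test of either gene. In female cells Fosb is not listed for the fresh libraries and was not tested, and Atf3 passed the filter on low counts in no class. In female macrophage-like cells Atf3 was at 25.4 CPM in cryopreserved and 21.1 in fresh libraries (30 and 28 UMIs), and in endothelial-like cells at 4.27 and 5.17 (12 and 13). It was at 4.69 and 10.0 in intercalated-like cells (12 and 20 UMIs) and at 2.69 and 10.1 in mesangial-like and mural-like cells (4 and 12), lower after cryopreservation. These are pooled levels with no test.

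The 2 transcription factor genes differed in which cells held them. In pooled UMIs, given with no test, Atf3 relative to Fosb was highest in myeloid classes and lowest in lymphocytes under each of 3 conditions. In macrophage-like cells there were 99.1 UMIs of Atf3 per 100 of Fosb in cold cryopreserved, 209 in warm cryopreserved and 201 in warm fresh libraries. In dendritic-like cells there were 87.1, 126 and 152. Endothelial-like cells had 30.2, 37.9 and 30.5, and lay between the myeloid cells and the lymphocytes. In T cell-like cells there were 5.96, 18.5 and 8.62, and in B cell-like cells 12.6, 17.4 and 6.98. The female cryopreserved libraries had 30 UMIs of Atf3 and 65 of Fosb in macrophage-like cells, and 0 and 47 in T cell-like cells.

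The level of Fosb by class is given from the lowest to the highest library. Proximal tubule-like cells, the most numerous, had 47.9, 67.7 and 98.3 CPM in warm fresh libraries. Endothelial-like cells of the same libraries had 315, 323 and 478, and macrophage-like cells had 195, 299 and 418. The 2 latter classes overlapped each other and lay above the proximal tubule-like cells. In the cold cryopreserved libraries dendritic-like cells had 670, 715 and 922 and monocyte-like cells 562, 681 and 711, which overlapped. Neutrophil-like cells had 1030, 1203 and 1263 there, above all other named classes, from 58 cells. Podocyte-like cells had 42.4, 69.1 and 73.5, among the lowest.

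Gm26802 did not keep a fixed proportion to Fosb. Over whole libraries Gm26802 had 2.04, 2.51 and 3.67 UMIs per 100 of Fosb in warm fresh, 8.26, 12.2 and 11.6 in cold cryopreserved and 3.12, 6.29 and 5.79 in warm cryopreserved libraries. The cold cryopreserved libraries were the highest and did not overlap the other groups. Fam71a had 5.90, 7 and 4.91 UMIs per 100 of Atf3 in cold cryopreserved and 5.23, 4.64 and 7.76 in warm cryopreserved libraries, which overlapped, and 3.72, 1.53 and 0 in warm fresh ones. The values in warm fresh libraries rest on 13, 10 and 0 UMIs of Fam71a, and that 0 can stand for up to 9.

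Within endothelial-like cells Gm26802 had 15.6, 18.5 and 18.4 UMIs per 100 of Fosb in the cold cryopreserved libraries. Macrophage-like cells of these libraries had 11.2, 14.3 and 5.77, and T, B and NK cell-like cells together had 2.31, 3.82 and 2.56. Each library gave the same order of the 3. In pooled UMIs, Gm26802 made up 15.0% of both transcripts together in endothelial-like cells (84 of Gm26802 and 477 of Fosb, exact binomial 95% interval 12.1% to 18.2%) and 3.54% in T cell-like cells (8 and 218, 1.54% to 6.86%). In proximal tubule-like cells of warm fresh libraries it made up 0.597% (9 and 1498, 0.273% to 1.13%). Endothelial-like cells had 6.06, 11.2 and 13.6 UMIs of Gm26802 per 100 of Fosb in warm fresh and 3.80, 7.75 and 8.22 in warm cryopreserved libraries. In each replicate the warm fresh value was thus the higher one in these cells, and the lower one over whole libraries.

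The endothelium was not alone in this. In pooled UMIs of cold cryopreserved libraries, collecting duct intercalated-like cells had 19.4 UMIs of Gm26802 per 100 of Fosb (20 and 103) and dendritic-like cells 14.6 (50 and 342), beside 17.6 in endothelial-like cells. By library the intercalated-like cells had 7.69, 24.6 and 12.5, and 17 of their 20 UMIs were in the second. They lay above the endothelial-like cells, at 15.6, 18.5 and 18.4, in that library only. In warm cryopreserved libraries thick ascending limb-like cells had 12.4 (18 and 145), beside 6.85.

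Fam71a was also compared with Atf3 by class. Endothelial-like cells had 20.7, 20 and 15.6 UMIs of Fam71a per 100 of Atf3 in the cold cryopreserved libraries and 17.4, 12.1 and 18.2 in the warm cryopreserved ones. Macrophage-like cells had 6.96, 6.28 and 2.94, and 2.27, 1.12 and 3.31, below the endothelial-like cells of each library. In the 2 warm fresh libraries with any Fam71a, macrophage-like cells had no UMI of it beside 133 and 182 of Atf3, and endothelial-like cells had 12 beside 33 and 6 beside 43. The third of these libraries lists Fam71a at 0 and is left out here. In pooled UMIs collecting duct intercalated-like cells had 21.9 per 100 in cold cryopreserved libraries (7 and 32), beside 18.8 in endothelial-like cells, and thick ascending limb-like cells had 20 in warm cryopreserved ones (17 and 85), beside 15.4. Lymphocyte-like cells had no UMI of Fam71a in any cryopreserved library, beside 72 of Atf3 in the warm ones. The bounds cover the counting of UMIs and leave out the spread between libraries, and the part of free RNA or of doublets in these shares was not tested.

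**Figure D5:**
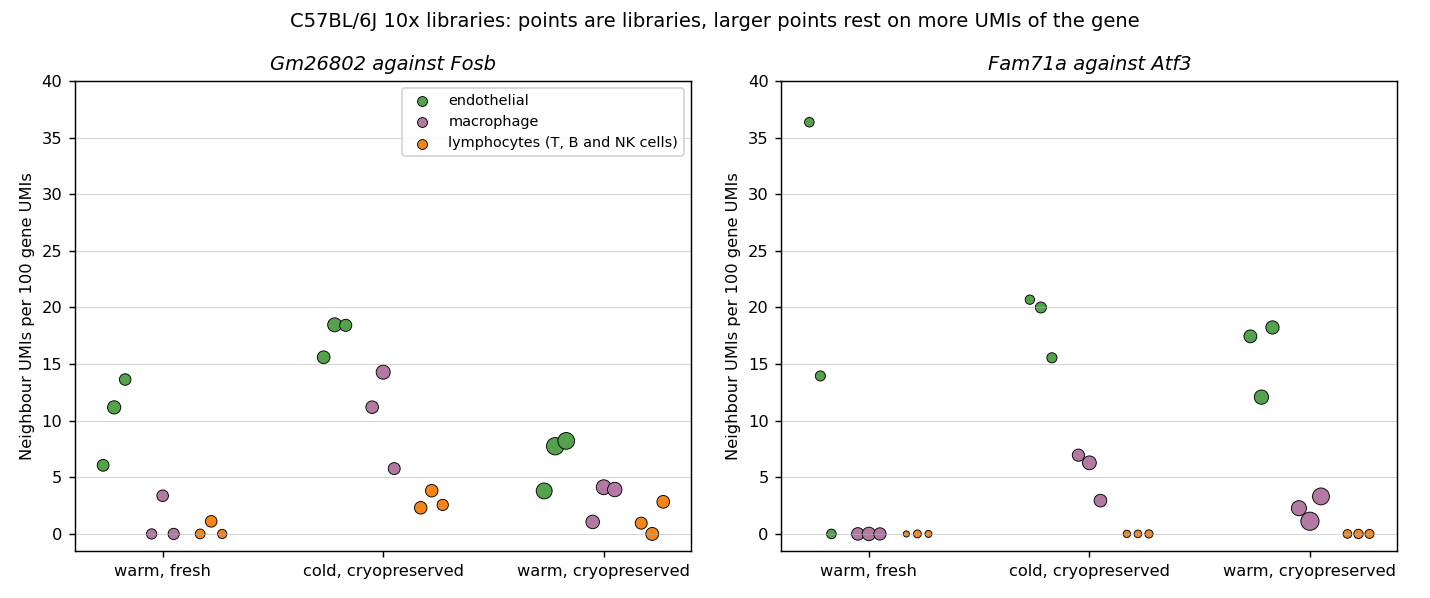
UMIs of Gm26802 per 100 UMIs of Fosb (left) and of Fam71a per 100 of Atf3 (right) in endothelial-like, macrophage-like and lymphocyte-like cells of the C57BL/6J 10x libraries. Each point is 1 library, and larger points rest on more UMIs of Fosb or Atf3. Of these 3 classes, endothelial-like cells lie highest in every cryopreserved library of the right panel and every cold cryopreserved library of the left.

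Over whole libraries, cells with a UMI of the neighbour held more of the gene before it. In cold cryopreserved libraries Fosb was at 914, 865 and 937 CPM in cells with a UMI of Gm26802 and at 387, 344 and 288 in the other cells. The cells with Gm26802 were deeper, with a median of 2470 UMIs against 1570 in the first library, and Atf3, which lies on another chromosome, was higher in them too (448, 511 and 716 against 192, 246 and 250). In warm cryopreserved libraries Fosb was at 2169, 1271 and 1520 in cells with Gm26802 against 822, 783 and 831, and Atf3 at 1213, 693 and 648 against 676, 727 and 637. Within the endothelial-like class Fosb was at 1126, 838 and 723 against 274, 307 and 259 in cold cryopreserved libraries, and at 2691, 1501 and 1738 against 1107, 1095 and 1015 in warm cryopreserved ones. Atf3 in cells with a UMI of Fam71a was at 273, 734 and 927 against 212, 249 and 260 in cold cryopreserved libraries, and at 889, 790 and 811 against 695, 716 and 614 in warm cryopreserved ones. Fosb, on another chromosome, was higher in these cells too. In cold libraries Fosb was 1.79, 2.06 and 2.35 times as high, and Atf3 1.28, 2.95 and 3.56 times. In warm ones Fosb was 1.65, 1.77 and 1.71 times as high, and Atf3 1.28, 1.10 and 1.32 times. Over whole libraries all 6 had the same direction for both pairs, but within classes this did not hold throughout. With the 3 libraries of a cryopreserved group pooled, Fosb was higher in cells with Gm26802 in 12 of 12 comparisons within a named class with at least 10 such cells, and Atf3 in cells with Fam71a in 5 of 7. The other 2, both warm, were macrophage-like cells (1671 against 1992 CPM) and thick ascending limb-like cells (112 against 170, from 4 UMIs of Atf3). Single libraries varied, as in macrophage-like cells of cold cryopreserved libraries, where Fosb was at 397, 939 and 1303 CPM in cells with Gm26802 against 409, 532 and 316. In intercalated-like cells of the same libraries Fosb was at 0, 603 and 0 against 247, 278 and 63.3. These rest on 2, 10 and 1 cells with Gm26802. No gene of another chromosome was compared within classes. The part of cell depth was not tested.

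Nuclei of intact frozen kidneys held little of either gene. None of the 4 is listed for male Balb/c cells or nuclei. In female nuclei of SN_FANS_3×500g, Fosb had 42, 45 and 38 UMIs and Atf3 had 93, 48 and 24, and neither neighbour is listed. Atf3 averaged 1.84 CPM in these nuclei and 1.80 in cold fresh cells, with overlapping libraries, and did not pass the test (log2 fold change −0.92, SE 0.54, adjusted p = 0.139, edgeR). Without the first library of these nuclei it passed, at −1.55 (adjusted p = 0.0391, edgeR). Here 84.8% of 13762 genes were called in either direction, and nuclei and cells are counted over different parts of the transcript. The totals also differ, since the nuclei data hold no mitochondrial genes, which made up 33.6%, 33.2% and 31.3% of UMIs in the fresh cells. The averages in CPM are therefore not on the same scale. The fitted value is relative to all genes after TMM scaling and not to the library total.

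Among nuclei protocols, Fosb was higher with SN_sucrose than with SN_FANS_3×500g. It had 149, 122 and 64 UMIs with SN_sucrose, or 5.28, 4.07 and 2.45 CPM, against 1.38, 1.48 and 1.40, with no overlap. The log2 fold change was 1.47 (SE 0.28, adjusted p = 0.00446, edgeR), where 23.9% of 17304 genes were called higher. Atf3 had 77, 105 and 88 UMIs with SN_sucrose, which overlapped SN_FANS_3×500g, and did not pass (log2 fold change 0.77, SE 0.39, adjusted p = 0.140, edgeR). Without the first library of SN_FANS_3×500g it passed, at 1.39 (adjusted p = 0.00635, edgeR).

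Markers of other cells moved in the same direction between these protocols. Of 6 macrophage markers 5 were higher and 1 lower with SN_sucrose, with sums between 54.2 and 65.4 against between 36.2 and 45.2 CPM. Of 9 endothelial markers 8 were higher, with sums between 994 and 1004 against between 445 and 665. Their part in the rise of Fosb was not tested. With SN_FANS_1×2000g, Fosb had 151, 46 and 59 UMIs and Atf3 had 136, 39 and 18, in which the first library stood above the other 2. Neither passed against SN_FANS_3×500g (Fosb 0.82, SE 0.44, adjusted p = 0.188, Atf3 0.02, SE 0.73, adjusted p = 0.982, edgeR), where 34.9% of 17449 genes were called in either direction.

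Partners of FosB and ATF3 among the bZIP factors were read from a list of 24 genes. This list was chosen with earlier results of these data known, so its counts beside the shares of all genes are a description. In bulk, warm against cold, 8 of 21 measured were higher and none lower, where 5.42% of all genes were higher, led by Fos (log2 fold change 7.53), Junb (4.30) and Jun (4.04). In fresh 10x cells, warm against cold, 5 of 21 were higher and 1 lower, where 7.86% of all genes were higher. Cryopreservation after cold dissociation raised 13 of 21 and lowered 1, where 21.8% of all genes were higher, with Fos at 8.67, Jun at 4.46, Junb at 4.39 and Maff, a small Maf protein, at 4.36. After warm dissociation it raised 15 of 21 and lowered none, where 25.8% of all genes were higher, with Maff at 3.43 and Fos at 2.18. In female cells it raised 14 of 22 and lowered 2, where 28.9% were higher, with Fos at 2.34 and Jun at 2.03. The median over the list was 0.78, 1.40 and 0.53 in the 3 comparisons of cryopreservation, beside −0.13, −0.15 and 0.02 over all genes.

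Methanol fixation raised none of 20 partners and lowered 5 after cold dissociation, with Jun at −0.83, where 27.9% of all genes were called in either direction. After warm dissociation it raised 1 and lowered 3, with Jun at −0.98 and Fos at −0.49, where 9.77% of all genes were lower. In intact kidneys against cold suspensions 4 of 23 were higher and none lower, namely Jdp2, an AP-1 repressor, at 0.62, Cebpb at 0.58, Fosl2 at 0.25 and Atf6 at 0.23, where 20% of all genes were called. With SN_sucrose 7 of 24 were higher and 5 lower than with SN_FANS_3×500g, with Fos at 1.32 and Junb at 0.99, where 23.9% of all genes were higher and 21.4% lower. SN_FANS_1×2000g had 5 of 24 higher and 1 lower, where 34.9% of all genes were called, and female nuclei had 8 of 23 higher and 10 lower than cells, where 84.8% were. The counts for methanol after cold dissociation, intact kidneys and nuclei are thus near or below the shares over all genes.

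A list of 21 genes of 3′ end cleavage and termination was read beside them, since these proteins end transcription past a gene. All 21 were measured in each comparison. In bulk, warm against cold, 1 was higher, Pcf11, a cleavage factor (log2 fold change 0.33), and none lower, where 5.42% of all genes were higher, and in fresh 10x cells no call was made. Cryopreservation gave 3 higher and 4 lower after cold dissociation, and 5 higher and 4 lower after warm dissociation, with Pcf11 at 1.08. Methanol gave 6 lower after cold and 1 lower after warm dissociation, and none higher, with Pabpn1, a poly(A)-binding protein, at −1.39 and −1.37. Female cells had 7 higher and 1 lower with cryopreservation. The median over the list lay between −0.33 and 0.19 in these 7 comparisons. Intact kidneys had 1 higher and 2 lower than suspensions (20% of all genes called), and female nuclei 11 higher and 9 lower than cells (84.8% called). SN_FANS_1×2000g had 1 higher and 4 lower than SN_FANS_3×500g (34.9% called), and SN_sucrose 3 higher and 10 lower (23.9% of all genes higher and 21.4% lower). The shares over all genes were 21.8%, 25.8% and 28.9% higher with cryopreservation, 27.9% called with methanol after cold and 9.77% lower after warm dissociation. The counts of these 5 comparisons are near or below them, and nothing is read from them. With SN_sucrose the 10 of 21 lower were above the 21.4% of all genes. The list median there was −0.16 beside 0.03 over all genes, and the cause was not tested.

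Over the 18 C57BL/6J 10x libraries, the genes most like Fosb in log2(CPM + 1) were Hspa1a (Pearson r = 0.992), Jun (0.992), Junb (0.990), Dusp1, a MAP kinase phosphatase (0.983), and Fos (0.982), among 12550 genes. Atf3 followed as the 6th (0.981), Gm26802 was the 83rd (0.833) and Fam71a the 143rd (0.787). Those most like Atf3 were Egr1 (0.992), Junb (0.988), Zfp36 (0.987), Fosb (0.981) and Hspa1a (0.981). Over the 15 bulk libraries, Atf3 was the gene most like Fosb (0.992) and the reverse held too, with Socs3, Tnfaip3, Rgs1 and Ccl4 next for Fosb and Tnfaip3, Socs3, Klf6 and Ccl4 next for Atf3, among 17036 genes. Fam71a was most like Socs3 (0.989), Ifrd1 (0.982), Tnfaip3 (0.978), Fosb (0.976) and Atf3 (0.973) there. These libraries fall into the groups described above, and the genes share libraries and depth, so the values describe the groups.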

How the data were processed

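RNA was measured by bulk RNA-seq (15 samples) and 10x (39). The authors deposited raw read counts per gene (STAR 2.6.1a, GRCm38, featureCounts) and UMI counts per cell (Cell Ranger 2.1.1, mm10, EmptyDrops) of filtered cells, with a filter on genes in fewer than 10 cells per the methods. The 4 genes and all lists were chosen with earlier results of these data known. UMIs were summed per library, or per library and cell class of at least 10 cells, and tested with edgeR 4.0.16 (TMM, filterByExpr, quasi-likelihood, Benjamini-Hochberg over all genes, or over the genes of a class), group against group within a set of mice. Classes came from scanpy 1.11.5 (2000 genes, 30 components, Leiden resolution 2), and doublets were not called. Each SE of an edgeR fit is the absolute log2 fold change divided by the square root of the F statistic, so it too depends on the prior count. CPM used deposited totals. Scripts were tested on simulated data. Named genes were the 4 genes, annotated genes within 50 kb, tested neighbours, list members that passed, and the 5 genes most like each member. Where the labels do not say otherwise, p-values measure the spread between these libraries. Alternatives were DESeq2 1.42.0, edgeR's exact test, RLE scaling, no filter, each library left out, resolution 1, other windows, and, chosen after seeing the data, zeros set to 9 UMIs and the suspension as a replicate block. Barcode headers show that C57BL/6J aliquots of 1 suspension were stored in 3 ways, so same-code libraries are paired. Their deviations correlated at −0.0157 to 0.0817 for cryopreservation and 0.0891 to 0.247 for methanol.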

Additional observations from a re-analysis of the deposited data

How the results depend on the processing

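Of 316 values under an alternative that answer a comparison, 284 kept their direction and their side of the threshold or stayed within the spread. DESeq2 gave other fitted log2 values where cold libraries were at 0, 7.23 for Gm26802 and 6.93 for Fam71a in bulk and 12.1 for Fosb in 10x. That 10x value of Fosb was 6.5 with zeros set to 9 UMIs and 12.5 to 13 with 1 library left out, and these values depend on the prior count. Leaving out 1 library at a time gave, on the log2 scale, −1.32 to 0.43 for Fosb and −0.41 to 0.29 for Atf3 in intact kidneys against suspensions, reversed without intact replicate 1 (0.16 and 0.29) or suspension replicate 3 (0.43 and 0.26). Atf3 had −0.75 to 0.53 in cold methanol (−0.75 without the second methanol and −0.52 without the first fresh library), 0.79 to 1.54 in female cryopreserved cells, −1.55 to −0.45 in nuclei against cells and 0.46 to 1.39 in SN_sucrose. In SN_FANS_1×2000g it had −1.14 to 0.64 (−1.14 without its first library, −0.11 and −0.29 without replicates 2 and 3 of SN_FANS_3×500g). The cause of these changes was not tested.

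With the replicate block of paired suspensions, Atf3 in cold methanol was −0.058 in place of 0.045, neither called. The block changed no other call reported here over whole libraries, and it was not run within cell classes. Gm26802 in warm methanol, given no call in the report, had −7.05 with the block and 0.61 with zeros set to 9 UMIs.

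Without the filter more classes were tested for Atf3 in cold cryopreserved cells. The fresh cells alone met the filter in no class there, so no count of classes called is given. Classes with Atf3 higher were 1 in place of 0 for warm methanol with zeros set to 9 UMIs. For female cells they were 3 in place of 0, and this level itself differs with class depth. Of same-strand neighbours past the end, 1 of 5 tested was higher in a window of 5 kb and 4 of 26 in 50 kb, in place of 2 of 7, and 3 of 26 from warm-induced genes at a log2 fold change of 1. Before the start these were 0 of 4, 3 of 27 and 2 of 18, in place of 1 of 9. On the opposite strand 1 of 23 was in 50 kb and 2 of 25 at that fold, in place of 0 of 7.

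Not run were Gm26802 and Fam71a in intact kidneys, Fosb in cold methanol, female cryopreserved cells and nuclei against cells, and male Balb/c nuclei. In these a gene is not listed or at 0, except for Fam71a. It is listed, with 1 read in a single intact female library, and did not pass the filter on low counts. The neighbours had at most 132 UMIs in a library.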
